A study of Drosophila melanogaster with 6 samples.

Results

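The transcripts that made up most of the measured RNA of the control adult Drosophila hindgut are described here, without reference to any other genotype. Genes were ranked by the mean of their deposited values in the 3 control libraries, and the 1142 genes with a mean of 100 or more were taken (the list, below), out of 17617 genes listed and 10073 genes with a value above 0 in at least 1 control library. Because these values chose the genes, their levels are given as a description and carry no test. The series holds 6 samples, of which the 3 control libraries were used.

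The control flies carried byn-Gal4, tub-Gal80ts and UAS-gfp (w;;byn-Gal4 tub-Gal80ts UAS-gfp/+). They were reared at 18°C and held as adults at 29°C for 7 days, so that the temperature-sensitive repressor Gal80ts no longer blocked Gal4 and GFP was made in hindgut enterocytes, where the byn promoter is active. Each library pooled 100 dissected hindguts, labelled as enterocytes with muscle, and the study's methods describe female flies. The libraries were made with QuantSeq, which reads the 3′ end of polyadenylated transcripts, so that read number is not meant to rise with transcript length. Levels of different genes are set side by side on that basis. Overlapping genes may share reads, as described below, and their values are not directly comparable. A deposited value is the read count of the gene in that library multiplied by 1 factor and rounded to a whole number. Triplets of values below are in the order control replicate 1, 2 and 3, and an error is the SD over these 3 libraries.

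The adult hindgut is an ectodermal epithelium that receives digested food from the midgut and urine from the Malpighian tubules, and it recovers water and ions before excretion. A layer of visceral muscle surrounds the epithelium and moves the contents along. The T-box factor brachyenteron (byn) and the forkhead factor fkh specify the hindgut in the embryo and stay in use in the adult epithelium, and proton pumps together with the sodium-potassium pump energise transport across insect epithelia of this kind.

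Library totals were 964629, 932389 and 1011488 on the deposited scale, which corresponded to about 686569, 1048807 and 755970 reads. A unit of the scale was worth 0.712, 1.12 and 0.747 reads. A listed 0 allowed up to 3 reads in a library, or 4.22, 2.67 and 4.01 on the scale, and this limit covers counting error only. Between pairs of libraries the Pearson correlation of log2(value + 1) across the 1142 genes was 0.936 for replicates 1 and 2, 0.797 for replicates 1 and 3 and 0.858 for replicates 2 and 3. These are correlations across genes, which are not independent replicates. Control replicate 3 stood apart from the others in 2 sets of genes that are described with the spread below, and each value that rests on it is given with its 3 library values.

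The 1142 genes held 83.9 ± 0.845% (SD, n = 3) of the summed value of a library, although they were 6.48% of the genes listed and 11.3% of the genes with a value. Counts of class and marker genes on the list, given below, are to be read beside these shares. The first 10 genes alone held 13.5 ± 1.25% (SD, n = 3), the first 30 held 23.9 ± 1.34% and the first 100 held 43.4 ± 1.45%. Of the summed mean, 25% lay in 33 genes, 50% in 139 genes and 75% in 566 genes. Of the 1142 genes, 7 had a mean of 10000 or more, 90 had 2000 or more and 194 had 1000 or more, and the median mean was 236. A short list of genes thus led the ranking, followed by a long tail of moderate ones.

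**Figure D1:**
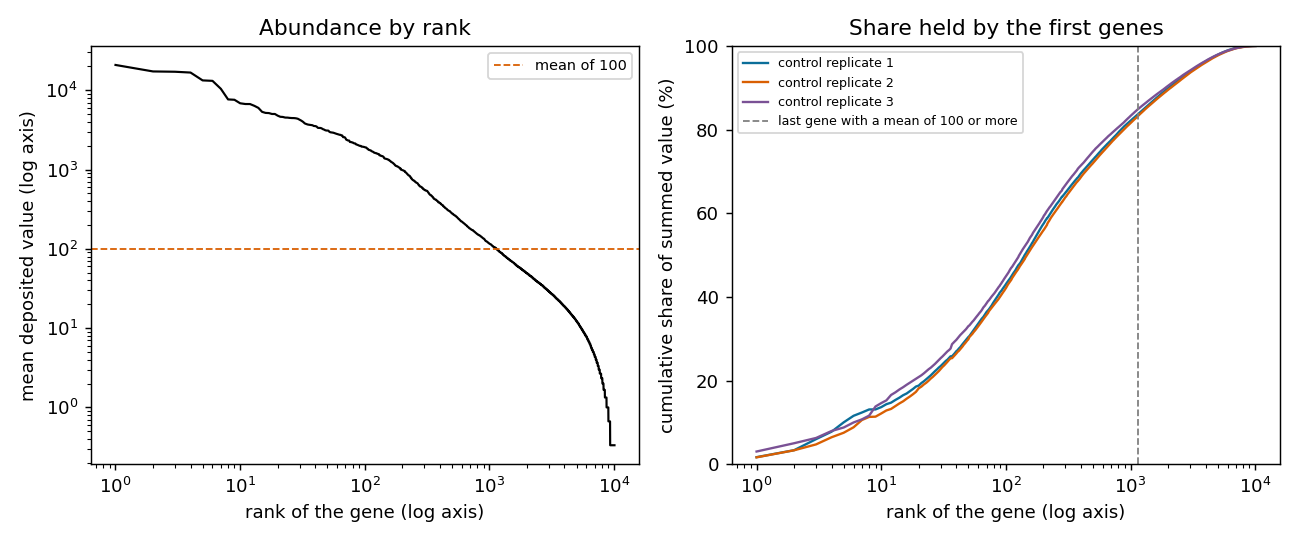
Left, the mean deposited value of each gene with a value above 0 against its rank (both axes logarithmic), with the mean of 100 as a dashed line. Right, the cumulative share of the summed value (%) in each of the 3 control libraries along the same rank (log axis), where the dashed line marks the last of the 1142 genes. The 3 curves run close together and reach 83.9 ± 0.845% (SD, n = 3) at that line.

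The threshold cut through a dense part of the ranking. The last genes inside were fray (87, 121 and 92), anchor (93, 96 and 111) and Acbp3 (163, 116 and 21), each with a mean of 100. The first genes outside were CG12811 (110, 109 and 80) and Men-b (103, 86 and 110), each with a mean of 99.7, and gem (103, 90 and 104) with a mean of 99. Of the 1142 genes, 917 had 100 or more in all 3 libraries, 225 fell under 100 in at least 1 library and 6 of those were listed at 0 in a library, while 231 genes outside the list reached 100 in at least 1 library. Genes near a mean of 100 were thus not separated from their neighbours beyond the spread between libraries.

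The highest mean belonged to CG6409, a gene with no functional name, at chromosome 3L, 10880699 to 10882386 in the BDGP6.54 annotation, with values of 16345, 15400 and 30802. CG42656, another gene known only by its number, lies on chromosome 3R, 7492961 to 7493271, and had 16054, 15717 and 20029. IM33, named as an immune-induced molecule and found on chromosome 2L, 3696218 to 3696658, had 25500, 13132 and 12713. VhaAC45, an accessory subunit of the vacuolar proton pump, had 17246, 15961 and 16937. The order of these leaders was not settled by the libraries. CG6409 was the most abundant gene in replicate 3 only, IM33 was above it in replicate 1, and the ranges of all 4 genes overlapped.

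The next genes were lncRNA:CR40469, an unspliced noncoding RNA of 214 bp on the X chromosome (21506, 10027 and 8403), the ribosomal protein gene RpL8 (15100, 12137 and 12176) and Vha16-1, the proton-ring subunit of the same pump (7576, 16197 and 7525). Vha16-1 was high in replicate 2 alone and lncRNA:CR40469 in replicate 1. They were followed by RpL41 (7059, 6947 and 8982), Met75Cb (48, 571 and 22133) and ATP6AP2 (5284, 7079 and 8183), a further accessory protein of the pump. Met75Cb held its place among the first 10 through replicate 3.

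From the 11th to the 20th place came Gp150, a leucine-rich repeat membrane protein linked to Notch signalling (6798, 6764 and 6553), COX4, a subunit of cytochrome c oxidase (3550, 3428 and 13118), mir-308, RpLP2, RpL27A, the translation elongation factor eEF1alpha1 (3936, 5775 and 5826), RpLP1, RpS23, CG15870 (5481, 5240 and 4335) and the constitutive chaperone Hsc70-4 (2237, 7887 and 4221). Gp150 differed little between libraries, COX4 was high in replicate 3 alone, and Hsc70-4 was lowest in replicate 1 and highest in replicate 2. From the 21st to the 30th place came lncRNA:CR34335, Atpalpha, RpL23A, CG34330 (4295, 4520 and 4734), GLaz, a secreted lipocalin related to apolipoprotein D (4735, 4816 and 3888), CG16713 (4959, 3925 and 4495), VhaPPA1-1, RpL21, ATPsynC and RpL23. Among the first 30 genes, 9 encoded cytoplasmic ribosomal proteins, 4 belonged to the proton pump or its accessory proteins and 3 were noncoding.

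**Figure D2:**
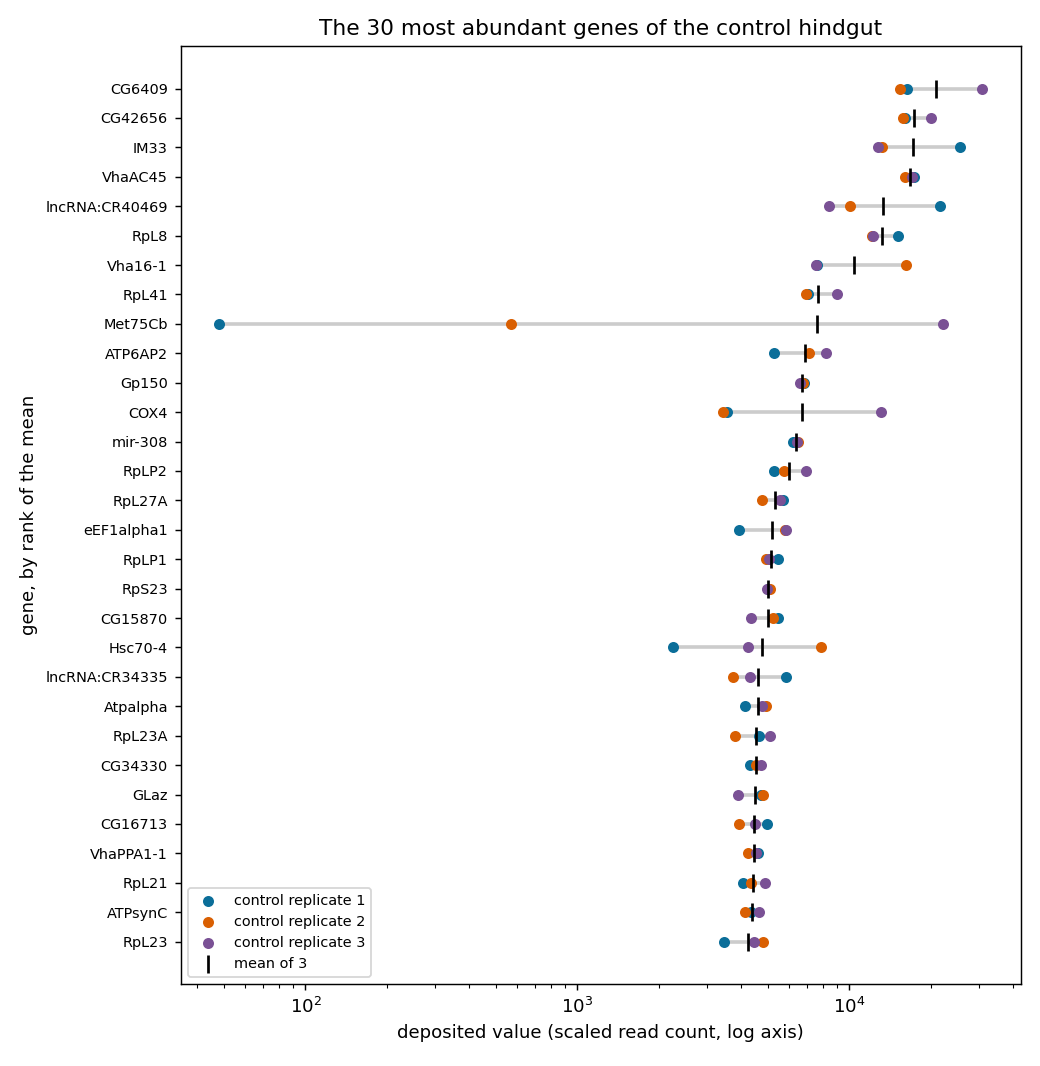
Deposited values (scaled read counts, log axis) of the 30 genes with the highest mean, in rank order from the top. Coloured points are the 3 control libraries, the grey line joins the lowest and highest value and the black tick is the mean of 3. Met75Cb spans 48 to 22133, whereas RpS23 spans 4968 to 5084.

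The leaders recurred in part between libraries. Of the genes among the first 10 of any single library, 7 of 15 were among the first 10 of all 3. For the first 30 the count was 23 of 37 genes, and for the first 100 it was 79 of 125. Several of the leading genes were also neighbours on the chromosome. CG16713, IM33 and CG3604 (2265, 2135 and 2088) lay side by side on chromosome 2L with gaps of 806 and 583 bp, Met75Cb and Met75Ca were 2524 bp apart on 3L, and CG15870 ended 10 bp from GLaz on the same strand of 2R. CG14949 (3758, 3451 and 3650) and CG1143 (3266, 3252 and 2899) on 3L and the yolk protein genes Yp2 and Yp1 on X were the other adjacent pairs among the first 100 genes.

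Grouped by function, protein synthesis took the greatest share. Cytoplasmic ribosomal protein genes held 19.0 ± 0.503% (SD, n = 3) of the summed value, 82 of the 88 genes of the class were among the 1142 and 35 were among the first 100. After RpL8 and RpL41, the acidic stalk protein gene RpLP2 was highest (5298, 5770 and 6908), and RpS23 (5007, 5084 and 4968) was the steadiest of the abundant ones. Translation factors added 1.77%, with 25 of 52 genes on the list, led by eEF1alpha1, eEF2 (1817, 2090 and 2060), which moves the ribosome along the messenger, and the helicase eIF4A (1286, 1823 and 1629). The class shares of the 3 libraries for ribosomal proteins lay close together, although single genes such as RpL24 (2650, 3721 and 4101) spread more.

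**Figure D3:**
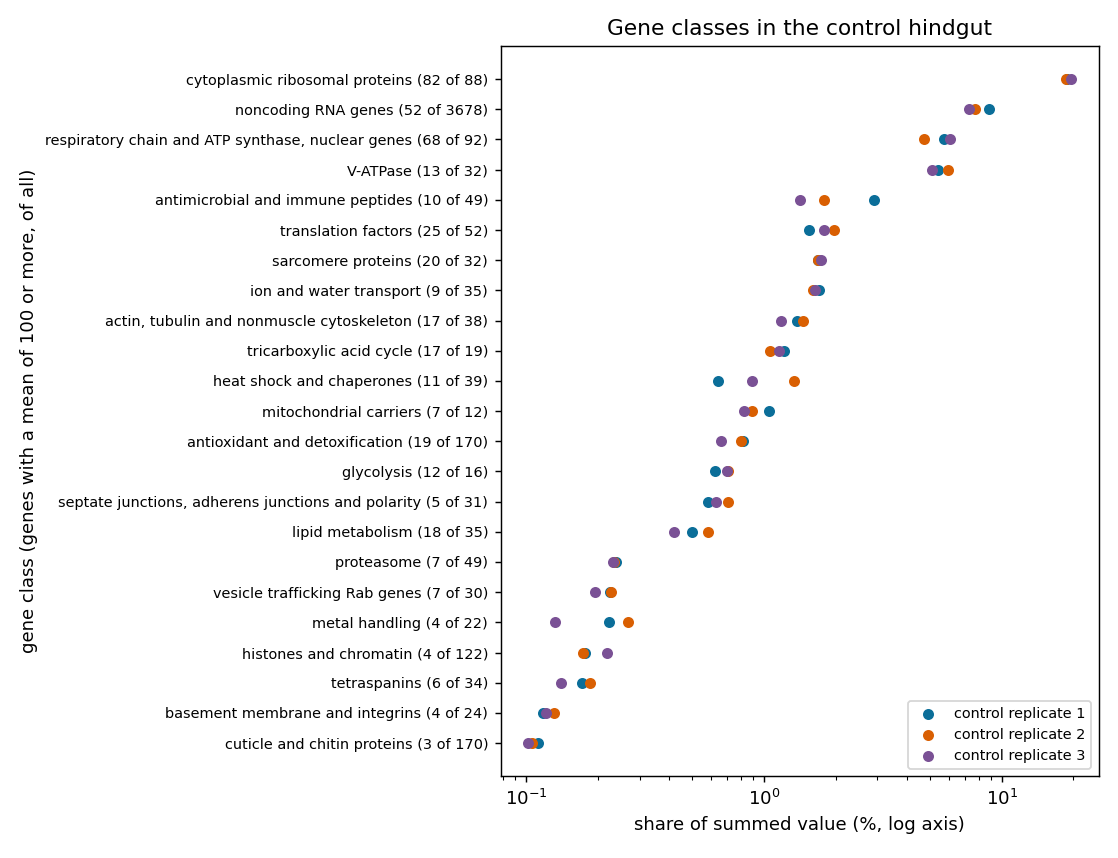
Share of the summed value (%, log axis) held by each of 23 gene classes in the 3 control libraries (points), with the number of genes with a mean of 100 or more out of all genes of the class in brackets. Cytoplasmic ribosomal proteins stand at 19.0 ± 0.503% (SD, n = 3), and the points of antimicrobial and immune peptides and of chaperones are spread widest among classes over 0.5%.

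The respiratory chain with ATP synthase and the vacuolar proton pump held similar shares. Nuclear genes of the respiratory chain and ATP synthase held 5.49 ± 0.698% (SD, n = 3), with 68 of 92 genes on the list. The 5.47% of the V-ATPase genes, described below, did not differ from this beyond the spread, and the order of the 2 classes turned to 5.37% for the respiratory chain against 5.51% without replicate 1, and to 5.22% against 5.65% without replicate 3. COX4 led the respiratory genes, and its value in replicate 3 (13118) was far above those in replicates 1 and 2 (3550 and 3428). The ATP synthase subunits ATPsynC (4331, 4119 and 4667), which forms the rotor ring, and blw (2950, 1723 and 1982), the alpha subunit, followed. No gene symbol of the mitochondrial genome was matched among the genes listed, so these genes form no class here and their share could not be given.

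The mitochondrial carriers were led by 4 genes. The ADP/ATP exchanger sesB had 3125, 2508 and 2587, the outer membrane channel porin had 2985, 2377 and 2317, the phosphate carrier Mpcp2 had 1727, 1367 and 1420, and the dicarboxylate carrier Dic1 had 1665, 1325 and 1338. The citrate carrier sea, the pyruvate carrier subunit Mpc1 and aralar1 had means of 275, 142 and 139, and the class held 0.924% with 7 of 12 genes on the list. Of the tricarboxylic acid cycle and associated enzymes, 17 of 19 were on the list and held 1.14%, led by Gdh, Idh3g (1478, 1530 and 1431) and the aconitase mAcon1 (1023, 662 and 1007). Glycolytic and gluconeogenic genes held 0.675%, with 12 of 16 on the list, led by Gapdh2 (1258, 1597 and 1565), Ald1 (786, 1042 and 1154) and Eno (902, 791 and 847).

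Enzymes and a transporter that handle glutamate and ammonia were named after their values were seen. Glutamate dehydrogenase, Gdh, which frees ammonia from glutamate, had 3083, 2439 and 2896. Glutamine synthetase 2, Gs2, which takes up ammonia, had 762, 684 and 452, and Gs1 had 38, 42 and 32. Gdh was thus above both synthetase genes in every library. Rh50, of the family of ammonium transporters, had 454, 327 and 375.

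Within the vacuolar proton pump (V-ATPase), 1 gene led each subunit type that could be matched. Genes with the Vha prefix held 5.47 ± 0.409% (SD, n = 3). Of these, 13 of 32 were on the list, beside 6.48% of all genes listed. Besides the accessory subunit VhaAC45, these 13 were 1 gene for each of the 12 subunit types that could be matched. Type C was not among the matched types. Because 6 of the 1142 genes had no name, the class and its share may leave out a subunit gene. In the catalytic part were Vha68-2 (A, 3768, 3580 and 3641), Vha55 (B, 3234, 2528 and 3532), Vha36-1 (D, 2344, 1744 and 1745), Vha26 (E, 1407, 900 and 1151), Vha14-1 (F, 1037, 739 and 985), Vha13 (G, 4229, 3527 and 4212) and VhaSFD (H, 874, 897 and 1218). In the membrane part were Vha100-2 (a, 1713, 1911 and 2048), Vha16-1 (c), VhaPPA1-1 (c'', 4617, 4223 and 4528), VhaAC39-1 (d, 2382, 1670 and 2373) and VhaM9.7-b (e, 1293, 1107 and 1656).

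For each of the 8 V-ATPase subunit types encoded by several genes, 1 gene took at least 91.8% of the value of its type in every library. That lowest share was for the a subunit, where Vha100-2 averaged 1891 and Vha100-5 had 115, 68 and 9. For the c subunit, Vha16-1 averaged 10433 and the next gene, Vha16-5, 0.333, and VhaPPA1-2, VhaAC39-2 and Vha14-2 were listed at 0 in all 3 libraries. The accessory proteins VhaAC45, ATP6AP2 and RNASEK (1595, 1169 and 1677) together held 2.58%.

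One gene also led several other families, chosen after the values were seen. sesB held 99.9% of its pair with Ant2, eEF1alpha1 99.9% of its pair with eEF1alpha2, Mpcp2 98.3% of its pair with Mpcp1, and Irk2 99.5% of the 3 inward rectifier potassium channel genes. Cyt-c-p had 690, 677 and 606, and its testis counterpart Cyt-c-d was listed at 0. Other families were more evenly divided. Gapdh2 held 72.2% of its pair with Gapdh1, and alphaTub84B held 86.0% of 4 alpha tubulin genes, with alphaTub84D next. Act5C, the cytoplasmic actin, held 56.5% on average of 6 actin genes and ranged between 46.6% and 65.0% among libraries, with the muscle actin Act57B next.

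The ion and water transport genes held 1.65%, and 9 of the 35 were on the list. Atpalpha, the catalytic subunit of the sodium-potassium pump, had 4119, 4924 and 4768, and its beta subunit gene nrv1 had 576, 593 and 626 and took 95.3% of the value of the 3 nrv genes. Irk2, an inward rectifier potassium channel, had 3759, 2420 and 3896. The cation/proton antiporter genes Nha1 and Nha2 had 2437, 1978 and 2170 and 888, 746 and 850. The carbonic anhydrase CAH1 had 1827, 1396 and 1660, the cotransporter NKCC for sodium, potassium and chloride had 1261, 1472 and 1395, and the transporter ine had 499, 378 and 317. Irk2 and ine had the widest spread of these genes between libraries, with coefficients of variation of 24.3% and 23.3%. SERCA, the calcium pump of the endoplasmic and sarcoplasmic reticulum, had 370, 390 and 312.

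The label names enterocytes and muscle, and markers of muscle and of hindgut epithelium both had values. Of 25 visceral muscle markers, 20 had a mean of 100 or more, and the list summed to 16198, 15725 and 17475. Most of these markers are sarcomere genes, so the list marks muscle and does not separate visceral from other muscle. The thin-filament genes were Tm1 (3168, 2728 and 2394), a tropomyosin that nonmuscle cells also use, Act57B (2246, 1805 and 2350), the troponin I gene wupA (1210, 1454 and 1413) and the troponin T gene up (812, 1056 and 1466). Of the myosin genes, the light chains Mlc1 (1806, 2072 and 1661) and Mlc2 (1837, 1441 and 1982) exceeded the heavy chain Mhc (696, 632 and 711). The giant titin-like genes sls (200, 127 and 137) and bt (84, 70 and 75) were low, and TpnC41C and org-1 were listed at 0. The muscle regulators Mef2 and bap had 44, 65 and 75 and 62, 49 and 39.

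The sarcomere class held 1.70 ± 0.027% (SD, n = 3), so that its share differed little between libraries. In pooled tissue, fewer cells of a type and less RNA per cell cannot be told apart, so these sums do not give the proportion of muscle. The cytoskeleton class of nonmuscle genes, which shares Tm1 with the sarcomere class, held 1.34% and was led by Act5C (3397, 3869 and 2444), Tm1 and alphaTub84B (1736, 1928 and 2107).

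Of the hindgut epithelium markers, 11 of 12 had a value and 2 were on the list. They were fkh (336, 505 and 481) and byn (299, 283 and 450). The cell adhesion gene Fas3 had 80, 90 and 51, drm 44, 58 and 32, Abd-B 18, 47 and 46, bowl 18, 30 and 35, crb 30, 20 and 16, lin 14, 20 and 15, hh 13, 5 and 20, cad 15, 12 and 7 and wg 1, 1 and 1, and en was listed at 0. Other transcription factors on the list, named after their values were seen, were the stress-response factors crc (572, 659 and 790), Xbp1 (267, 265 and 371) and Xrp1 (208, 287 and 257), the nuclear receptor Hnf4 (108, 208 and 114), Pdp1 (254, 273 and 344) and Stat92E (117, 107 and 102). The value of crc may include reads of CG46314, which overlaps it and had 578, 671 and 794.

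**Figure D4:**
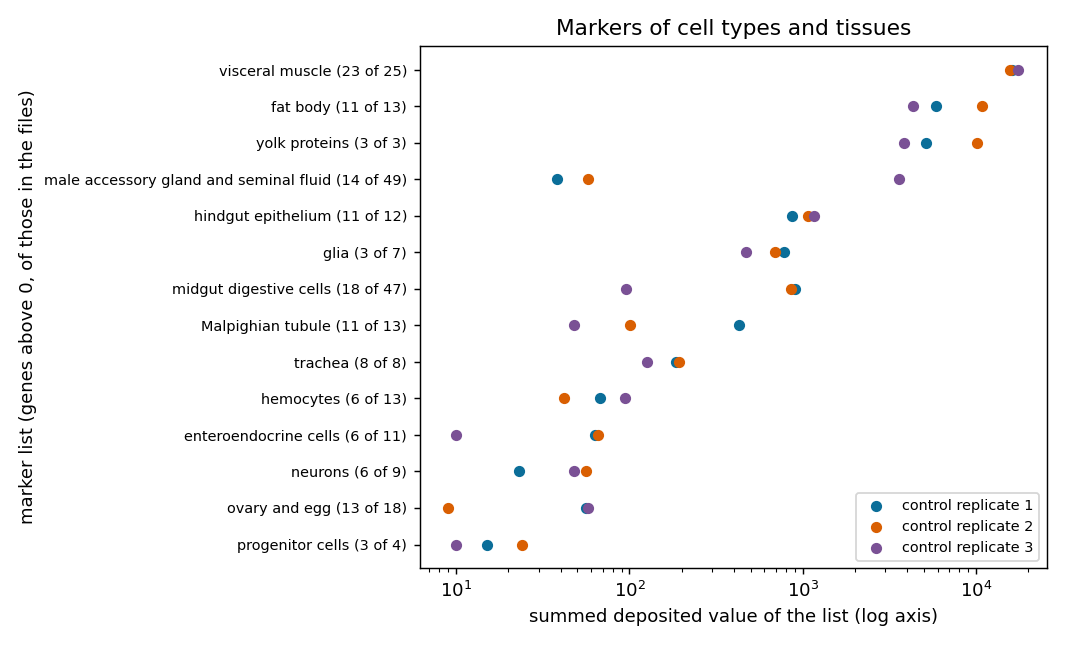
Summed deposited value (log axis) of 12 marker lists and of the yolk protein and male accessory gland lists in the 3 control libraries (points), with the number of genes above 0 out of those in the files in brackets. The yolk genes are also part of the fat body list. Visceral muscle markers sum to 16198, 15725 and 17475, and the male accessory gland list sums to 38 and 58 in replicates 1 and 2 and to 3589 in replicate 3.

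Markers of neighbouring gut tissues were low and uneven. The midgut digestive list summed to 901, 852 and 96, and 29 of its 47 genes were listed at 0 in all 3 libraries, among them the amylase gene Amy-d, the lipase gene mag, betaTry and Jon25Bi. Most of the sum came from zetaTry (552, 523 and 64), the only 1 of the 47 on the list, alphaTry (125, 82 and 13) and iotaTry (86, 57 and 3). The Malpighian tubule list summed to 427, 101 and 48, of which Alp4, an alkaline phosphatase, made up 353, 68 and 37, followed by Urm1 (7, 15 and 11) and Smvt (21, 4 and 0), with Eglp3 and bib at 0. The trypsin genes were low in replicate 3, and Alp4 was high in replicate 1.

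Other cell types gave few reads. Enteroendocrine markers summed to 63, 66 and 10, led by AstA (35, 36 and 3), CCHa2 and Tk, with sNPF, Orcokinin, Mip, Dh31 and pros at 0. The 4 progenitor markers that could be matched summed to 15, 24 and 10, with E(spl)mbeta-HLH highest (15, 19 and 3) and GstD4 at 0. Neuronal markers summed to 23, 56 and 48, led by elav (14, 13 and 33) and nSyb (7, 36 and 9), with Syt1, VAChT and Rdl at 0. Tracheal markers summed to 186, 194 and 127, led by knk (87, 87 and 59), sinu (31, 35 and 35) and Gasp (32, 32 and 17).

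The glial list summed to 779, 696 and 470, but Gs2 alone made up 762, 684 and 452, and the defining glial genes repo, alrm, Gat and wrapper were at 0. Hemocyte markers summed to 68, 42 and 94, nearly all from crq (59, 36 and 83), and Hml, NimC1, eater, He, Sr-CI, PPO3 and lz were at 0. Ovary and egg markers summed to 56, 9 and 58, led by vas, osk (1, 1 and 21) and Vm26Aa, with Vm26Ab, psd, piwi, Cp19 and otu at 0. The fat body list summed to 5843, 10883 and 4326. It consisted mainly of the yolk protein genes Yp1 (2286, 5113 and 1893), Yp2 (1906, 3562 and 1523) and Yp3 (980, 1420 and 414), while the lipophorin gene apolpp had 194, 325 and 111 and Fbp1 and Fbp2 were at 0. The yolk genes were highest in replicate 2. What part RNA from other tissues had in any value was not tested.

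The class of antimicrobial and immune peptides was taken by gene symbol and was led by 1 gene, IM33. That gene entered the class by its symbol, and its role was not examined here. The antimicrobial and immune peptide class held 2.04 ± 0.772% (SD, n = 3), with 10 of 49 genes on the list, and IM33 made up most of it, so that the share was 0.268% without it. Listericin had 350, 460 and 475. BomS2 (490, 495 and 84), BomBc2 (295, 386 and 103), Dso1 (125, 331 and 90), BaraA1 (252, 183 and 71), BomS3 (180, 221 and 64), BomT3 (188, 115 and 36) and BomS6 (103, 174 and 47), peptides induced by Toll signalling, were all lowest in replicate 3, and Drs had 87, 227 and 162. The antibacterial peptide gene CecA1 was listed at 0 in replicate 1 and had 95 and 134 in replicates 2 and 3.

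Components of the Toll and Imd pathways, added as a list after the values were seen, were far below IM33. Of these, 4 of 26 had a mean of 100 or more, beside 6.48% of all genes listed and 11.3% of those with a value. These were the NF-kB inhibitor cact (188, 259 and 269), the adaptor Myd88 (138, 90 and 173) and the receptors PGRP-LC (200, 114 and 133) and PGRP-LA (150, 235 and 254). The transcription factors Dif (83, 67 and 51) and Rel (77, 56 and 43) lay below, and the receptor Tl had 6, 4 and 5. The ligand gene spz had 21, 6 and 41.

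Of the remaining classes, antioxidant and detoxification genes held 0.759% (19 of 170 on the list), led by GstE12 (541, 621 and 526), GstD1 (478, 548 and 594) and Sod1 (679, 472 and 464). Chaperones held 0.955% (11 of 39), led by Hsc70-4, Calr (1390, 1304 and 1069) and Hsc70-3 (476, 755 and 799). The chaperone share differed between libraries mainly with Hsc70-4, and without that gene it was 0.456%. Lipid metabolism held 0.50% (18 of 35), led by scu (388, 828 and 474), the fatty acid binding protein gene fabp (481, 562 and 442) and the desaturase Desat1 (424, 620 and 339). Metal handling held 0.208% (4 of 22), with the metallothionein MtnA (769, 742 and 241) and the ferritin subunits Fer1HCH (490, 754 and 381) and Fer2LCH (275, 411 and 349).

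Junction and polarity genes held 0.638% with 5 of 31 on the list, but Atpalpha, which is part of septate junctions as well as of the ion pump, made up most of it, and the others were arm (163, 160 and 384), par-1 (145, 244 and 206), cora (108, 98 and 118) and scrib (104, 97 and 115). Without Atpalpha the share was 0.162%. Basement membrane and integrin genes held 0.123% (4 of 24: trol, Pax, Ilk and by). The proteasome held 0.236% (7 of 49), with Prosbeta4 (104, 131 and 154), Rpn8 and Prosbeta5 highest, and the median of the means of its genes was 48.3.

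Rab genes held 0.216% (7 of 30), led by the late endosomal Rab7 (468, 459 and 502), the early endosomal Rab5 (253, 277 and 308) and Rab10 (318, 260 and 197). Tetraspanins held 0.165% (6 of 34), led by Tsp42Ea, Tsp42Ee and Tsp29Fb, and histone and chromatin genes held 0.190% (4 of 122), namely His4r (587, 492 and 668), His3.3B, His3.3A and HmgZ. Although the hindgut is lined by cuticle, cuticle and chitin genes held 0.107%, and 3 of 170 were on the list: Cpr67B (386, 408 and 550), Cpr62Ba (299, 275 and 213) and obst-E (90, 88 and 127).

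The classes accounted for 416 of the 1142 genes. The other 726 genes held 33.0 ± 1.72% (SD, n = 3) of the summed value and included CG6409 and CG42656. Among those with a known role, named after their values were seen, were the chitinase-related growth factors Idgf4 (2182, 2000 and 2492) and Idgf6 (2251, 2069 and 1796), arginine kinase Argk1 (2101, 2359 and 2618), the ejaculatory bulb protein gene EbpIII (2642, 1940 and 1476), the phosphate cotransporter Picot (1134, 1028 and 1127), the ribosome-associated scaffold Rack1 (1180, 1083 and 2420) and Oda, the antizyme of ornithine decarboxylase (1370, 1466 and 2051). The 6 Idgf genes together held 0.515%, and 5 of them were on the list.

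The small GTPase Rho1 (395, 497 and 369), the myosin regulatory light chain sqh (430, 292 and 385), Rac2 (354, 228 and 250) and the cofilin gene tsr (205, 215 and 221) were on the list as well, whereas Cdc42 (105, 74 and 67) and Rac1 (66, 54 and 92) fell short of a mean of 100. They too were named after their values were seen.

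Of the 1142 genes, 1084 were protein coding, 33 were small nucleolar RNA (snoRNA) genes, 13 were other noncoding RNA genes, 5 were pseudogenes and 1 was an rRNA gene, and 6 had no annotation match and are not named. These 52 noncoding genes held 7.61 ± 0.795% (SD, n = 3), and all listed noncoding genes held 7.95 ± 0.774%. All 33 snoRNA genes, which held 4.46%, 4.51% and 4.29%, lay inside a protein-coding gene, and 39 of the 52 noncoding genes lay inside another of the 1142 genes, 33 of those inside a ribosomal protein gene. A snoRNA gene inside the actin gene Act57B had 2246, 1801 and 2346, beside 2246, 1805 and 2350 for Act57B itself. snoRNA:Psi28S-2149 had 3069, 2558 and 3111 beside 3040, 2537 and 3065 for its host RpS7, and mir-308 had 6228, 6461 and 6392 beside 5007, 5084 and 4968 for its host RpS23.

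Of these 39 genes, 15 lay between 0.8 and 1.25 times the value of the host in all 3 libraries, and 15 were above the host in all 3. The study's methods name the utr parameter of metaseqR2 but not how reads in overlapping genes were assigned, so the value of a nested gene may hold reads of its host and may enter the sums a further time, and it is not evidence of the small RNA itself. The other leading noncoding genes were not of this kind. lncRNA:CR40469 was not nested in a protein-coding gene with a value, and lncRNA:CR34335 (5850, 3725 and 4310) lay inside DIP-alpha, which had 6, 4 and 1.

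Overlap was common among protein-coding genes too. Of the 1084 protein-coding genes, 423 overlapped another gene with a value, 192 overlapped one with at least 10% of their own mean, and 24 had values within 5% of an overlapping gene in all 3 libraries. Examples chosen after their values were seen were Pepck1 (143, 342 and 103) and CG45087 (143, 350 and 104), and DPCoAC and att-ORFB, both at 143, 60 and 138. Such pairs cannot be told apart by these values.

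In features that the ranking did not use, the protein-coding genes among the 1142 had a median of 1813 bp of exon sequence, against 2073 bp for the 8220 other protein-coding genes with a value, and a median gene length of 2979 bp against 2671 bp. Genes known only by a CG number were 23.3% of the first set and 36.9% of the second. The share of genes with a value that reached a mean of 100 ranged from 8.43% on chromosome 4 to 12.6% on 2R. These are descriptions without a test.

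The spread between the 3 libraries had a median coefficient of variation (CV, the SD over the mean) of 18.3%, with quartiles of 11.5% and 28.0%. Counting of reads alone would give a median of 7.16%, and the observed CV was a median of 2.91 times the value that counting gives for that gene. In 104 genes, 9.11%, it was not above it. The median fell with the level, being 21.6% for the 494 genes with a mean between 100 and 200, 17.7% for the 322 genes up to 500, 16.5% for the 132 genes up to 1000 and 13.9% for the 194 genes above. In the last group counting alone would give 2.50%.

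**Figure D5:**
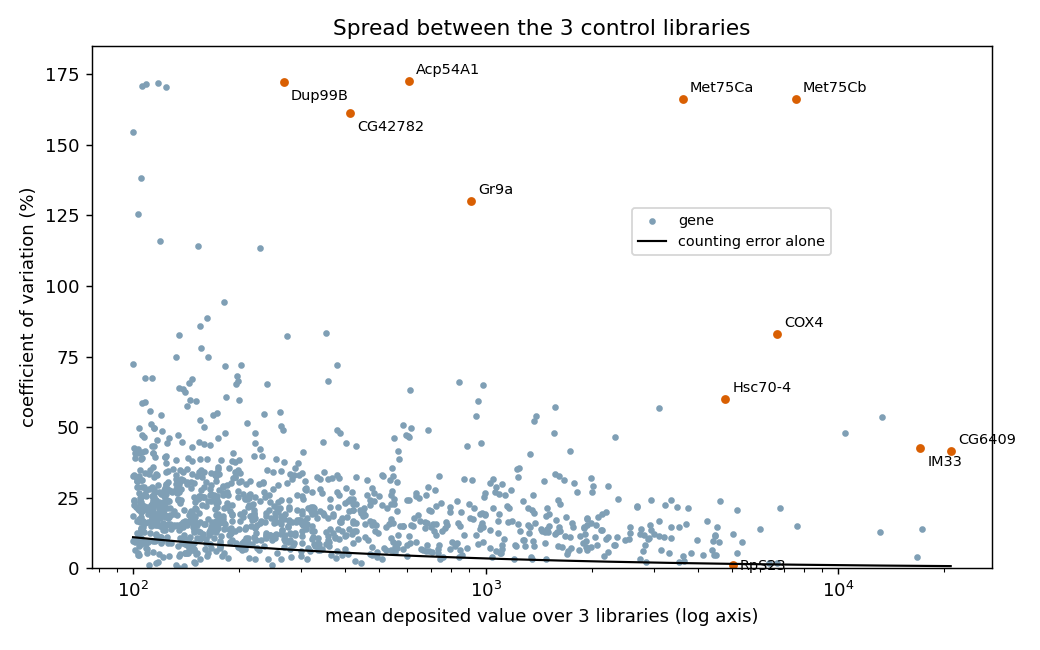
Coefficient of variation over the 3 control libraries (%) of each of the 1142 genes against its mean deposited value (log axis). The black line is the CV that counting of reads alone would give, and named genes are in orange. Most genes lie above the line, 72 of them at 50% or more and 16 at 100% or more.

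Steady genes occurred at all levels. pippin had 135 in each library, and CG6125 (139, 141 and 139), CLIP-190 (245, 250 and 248), sncRNA:357 (112, 112 and 110) and Abcd3 (134, 132 and 131) followed. All 5 were below the CV that counting of reads gives at their level. Among the first 30 genes, RpS23, mir-308 and Gp150 had CVs of 1.18%, 1.88% and 1.98%.

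The 10 genes with the greatest spread were mostly genes of 1 library. Acp54A1 had 1, 4 and 1812, Dup99B 1, 2 and 800, CG43061 0, 2 and 352, Sfp93F 0, 2 and 324, CG42869 0, 3 and 316 and Anp 0, 4 and 367. Acp54A1, Dup99B, Sfp93F and Anp are known as products of the male accessory gland, ejaculatory duct or seminal fluid. Met75Ca (30, 262 and 10588), Met75Cb and CG42782 (0, 57 and 1183) were likewise high in replicate 3 and lowest in replicate 1, and mat (22, 278 and 0) was high in replicate 2.

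A list of 49 male accessory gland and seminal fluid genes, added after this was seen, summed to 38, 58 and 3589, with 14 genes above 0. Of these, 5 were among the 1142 genes, namely Acp54A1, Dup99B, Sfp93F, Anp and Est-6 (21, 36 and 252). All 5 were below the threshold in the other libraries and were among the 1142 genes only through replicate 3. Their place there thus rests on 1 library. The study's methods describe female flies. EbpIII, of the ejaculatory bulb list, did not share the pattern and was highest in replicate 1. It made up 2642, 1940 and 1476 of that list's sums of 2643, 1951 and 1477, so the list rests on 1 gene. The origin of the values in replicate 3 was not tested.

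Replicate 3 was at least 3-fold above both other libraries in 12 of the 1142 genes and at least 3-fold below both in 19. Such counts depend in part on the choice of genes, because the mean that chose them includes each library. The same counts over all genes with a value are not given. The high ones were 9 of the 10 genes of greatest spread together with COX4, the germline thioredoxin gene dhd (48, 31 and 278) and Est-6. All of these high genes except COX4, Met75Cb and Met75Ca were below the threshold in both other libraries. They were among the 1142 genes only through replicate 3. The low ones included the trypsin gene zetaTry, BomS2, BomT3, MtnA, the acyl-CoA binding protein genes Acbp5 (292, 146 and 27) and Acbp3, and CG6337 (946, 695 and 189). Replicate 1 was 3-fold apart in 3 genes upward, CG13220 (530, 83 and 76), Alp4 and Dyb (274, 15 and 28), and in 9 downward. Of these 9 genes, 5 had at most 4 in replicate 2 as well, under the 4.22 that a listed 0 allows in replicate 1. Only the other 4 (Met75Cb, Met75Ca, Gr9a and CG42782) were low beyond that limit. Replicate 2 was 3-fold apart in 3 genes upward, Gr9a, a gustatory receptor gene (18, 2250 and 460), CG34291 (56, 263 and 87) and mat, and in none downward. These genes were named after their values were seen. The median CV of the 1142 genes was 14.0% without replicate 3, 17.4% without replicate 2 and 14.2% without replicate 1, each from an SD of 2 values.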

How the data were processed

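The 3 control libraries were analysed and the RasV12 libraries were not used. The authors aligned QuantSeq reads from an Ion Proton to dm6 with hisat2 and then bowtie2 in its local, very sensitive mode, and normalized counts through metaseqR2 with DESeq. Counting used the utr parameter of metaseqR2. Tool versions, the annotation, the strand setting and the handling of overlapping genes are not given in the sources used here. Per gene, the deposited signal is the read count multiplied by 1 factor per library, then rounded. The factors, 1.405, 0.889 and 1.338, were recovered from which whole numbers occur, and reads were taken as value over factor. Raw counts were not used, and no test was run, since there is 1 group. Libraries were compared by chi-square over genes with 10 or more reads and none was a copy of another (chi-square per degree of freedom of 8.33 to 15.2).

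Values were ranked by mean in pandas 2.3.3 (numpy 2.4.6, Python 3.11.15) and drawn in matplotlib 3.10.9. Names and positions came from Ensembl 115 (BDGP6.54), which matched 17520 of 17617 identifiers. The counting CV is that of a Poisson count at the mean, and the procedure was tested on simulated data. Recovery of the factor failed for simulated factors that were exactly round, so the test used factors that were not round. The genes and lists were chosen with earlier results of these data known. Genes named by rule are the first 30, the first 3 of each list and marker genes at 0. The rule also covers the 10 most and 5 least variable, 3 on each side of the threshold and members of lists of up to 12 genes. Any others were chosen after their values were seen, and this is not stated at every place. Classes may share genes. The symbol pattern for cuticle genes also matched accessory gland genes, which were removed. Alternatives were other averages, scalings, thresholds, gene sets and pseudocounts, and each library left out in turn. A planned motif search of promoters was not run, since promoter sequence was not used here. The result for 1 gene is not reported here.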

Additional observations from a re-analysis of the deposited data

How the results depend on the processing

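The number of genes followed the threshold, with 1974 at a mean of 50 and 648 at 200 in place of 1142 at 100. Leaving out genes that overlap another gene with a value, chosen after seeing the data, gave 676. Under the median in place of the mean, other scalings, a length of at least 500 bp or 100 in every library it was 917 to 1158, and without 1 replicate it was 1124 to 1139. Without the most abundant gene, class shares were 17.7% for ribosomal proteins, 3.74% for V-ATPase, 1.41% for sarcomere and 6.57% for noncoding genes, in place of 19.0%, 5.47%, 1.70% and 7.95%. With the accessory gland genes that its pattern also matched, the cuticle share was 0.168%. The median CV was 14.0 to 17.4% without 1 replicate, where an SD of 2 values is taken, and the cause was not tested. A class share cannot change when a library is scaled, and leaving out 1 replicate cannot move a mean of 3 by 1 SD, so these alternatives say nothing of stability. The median counting error was 9.46% for genes with a mean between 100 and 200 and is greater below 100. No paired analysis was possible because no comparison between groups was made.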
